A study of Mus musculus with 12 samples.

Results

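Voltage-gated sodium channels open when a membrane is depolarized and carry the upstroke of the action potential. Each channel consists of a large alpha subunit, which forms the pore, and smaller beta subunits, which alter gating and bind the channel to neighboring proteins. In the cochlea, the neurons of the spiral ganglion use these channels at the initial segment and the nodes of Ranvier to carry spikes from the hair cells to the brain. The genes described here were 5 alpha subunit genes (Scn1a, Scn2a1, Scn3a, Scn8a and Scn9a) and 3 beta subunit genes (Scn2b, Scn3b and Scn4b), chosen by their names on the array. All 8 were found, among 19505 genes in all, and they were covered by 134 exon probes of 60 bases. RefSeq (GRCm38.p6) lists 7 of them under the same symbol and Scn2a1 as Scn2a.

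The data were 12 single-color exon arrays, 4 for each of the apical, middle and basal turns. The animals were male C57BL/6 mice 6 weeks old, with no treatment and no engineered allele named. Per the study's methods, the tissue of a turn held spiral ganglion neurons as well as the organ of Corti and the lateral wall, and 25 ng of its RNA was labeled. The labels count 4 mice but do not tie an array to a mouse, so the p-values below measure the spread between these samples. The 4 arrays of a turn shared 1 slide and no other turn lay on it, so slide and turn cannot be told apart. Between 77.4% and 81.4% of the spots of an array were well above background, and no spot of a probe was saturated. By marker lists, 2 apical arrays stood apart. The geometric mean of 5 brain glia markers was 213.7 on apical array 3 and 68.7 to 80.1 on the other apical arrays, and that of 6 bone markers was 657.4 on apical array 4 and 149.8 to 271.7 on the others. Without either array, all 8 genes still passed the test of the apical against the basal turn.

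All 8 genes had a higher signal in the apical than in the basal turn, except that Scn9a stood at -0.03 log2 units when the arrays were scaled to the spike-in probes. Scn1a, Scn8a and Scn4b stood at more than 3 times the basal signal in the apical turn by their geometric means, and the middle turn lay close to the apex. The other 5 genes differed by between 0.46 and 0.85 log2 units, and most of their probes were near background. Of the 8 genes, 8 passed the test of the apical against the basal turn (limma, adjusted p under 0.05), where 17.6% of all genes passed in that direction and 21.6% in the other. In 7 of the 8 every apical array stood above every basal array, as in 16.9% of all genes, and Scn9a overlapped. The median difference of the 8 genes was 0.80 log2 units, against -0.04 over all genes tested. With the rule of a 2-fold difference and an adjusted p of the F test under 0.05, 3 of the 8 were called, where 3.27% of all genes were called in that direction and 1.12% in the other. A lower signal in such tissue can come from fewer cells of a type or from less RNA per cell, and the arrays cannot tell these apart.

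The probes were designed to single exons, and probes of different subunits resemble each other because the alpha subunits are related. The sequences below are shown because they carry the largest difference between apex and base within Scn1a (transcript base 1155, chr2:66167088-66167147, minus strand), Scn8a (base 3171, chr15:100846216-100846275, plus strand) and Scn4b (base 174, chr9:44954869-44954928, plus strand). Positions are those of mm9 in the deposited files.
Scn1a 1155: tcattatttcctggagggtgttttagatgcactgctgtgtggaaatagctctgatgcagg
Scn8a 3171: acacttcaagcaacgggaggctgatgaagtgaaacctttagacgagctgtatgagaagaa
Scn4b 174: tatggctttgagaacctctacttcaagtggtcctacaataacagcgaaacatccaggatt

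These probes fell with the turn as follows. The Scn1a probe had a mean signal of 407 in the apical, 345 in the middle and 83.8 in the basal turn. The Scn8a probe had 155, 127 and 23.2, and its difference of 2.74 log2 units was the largest of the 134 probes. The Scn4b probe had 483, 447 and 131.

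Scn1a encodes the pore subunit Nav1.1, found in many fast-spiking neurons and at nodes. Its 25 probes lie between chr2:66111022 and chr2:66189074 on the minus strand. The normalized signal, which is the mean over the probes of a gene after each array was scaled, was 319, 231, 309 and 266 on apical arrays 1 to 4. It was 386, 212, 248 and 187 on the middle arrays, and 81.3, 46.8, 185 and 53.8 on the basal arrays. No basal array reached the lowest apical or middle array, although basal array 3 came close to middle array 4. The means were 281 ± 40.7 in the apical, 258 ± 88.9 in the middle and 91.6 ± 63.8 in the basal turn (SD, n = 4 each). Folds are given as ratios of geometric means, on which the test was made. By these the apical signal was 3.56-fold the basal signal (log2 difference 1.83 ± 0.38 SE, limma adjusted p = 0.00281). The middle signal was 3.17-fold the basal signal (1.66 ± 0.38, limma adjusted p = 0.0115).

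Scn8a encodes Nav1.6, the main alpha subunit of mature nodes of Ranvier and distal initial segments. Its probes lie between chr15:100766904 and chr15:100875761 on the plus strand. The signal was 271, 226, 301 and 242 on the apical arrays, 351, 197, 230.4 and 176 on the middle arrays, and 87.0, 50.5, 166 and 64.9 on the basal arrays. The basal arrays again lay below all others, with basal array 3 the highest of them and basal array 2 the lowest. The geometric mean of its apical signal was 3.12-fold that of the basal signal (1.64 ± 0.33, limma adjusted p = 0.00220), and the middle signal 2.77-fold (1.47 ± 0.33, limma adjusted p = 0.0102).

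Scn4b encodes the beta4 subunit, which is known for its part in resurgent sodium current in fast-firing neurons. Its 5 probes lie between chr9:44947126 and chr9:44962104 on the plus strand. The signal was 798, 648, 885 and 735 on the apical arrays, 1062, 576, 695 and 612 on the middle arrays, and 244, 114, 544 and 181 on the basal arrays. Basal array 3 stood just under middle array 2, and the other basal arrays were far lower. The geometric mean of the apical arrays was 3.32-fold that of the basal arrays (1.73 ± 0.39, limma adjusted p = 0.00424), and the middle signal 3.12-fold (1.64 ± 0.39, limma adjusted p = 0.0129). The SD of the 3 called genes between basal arrays was 0.89, 0.74 and 0.95 log2 units for Scn1a, Scn8a and Scn4b. Without basal array 3, their differences between apex and base rose to 2.24, 1.97 and 2.15 log2 units.

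**Figure D1:**
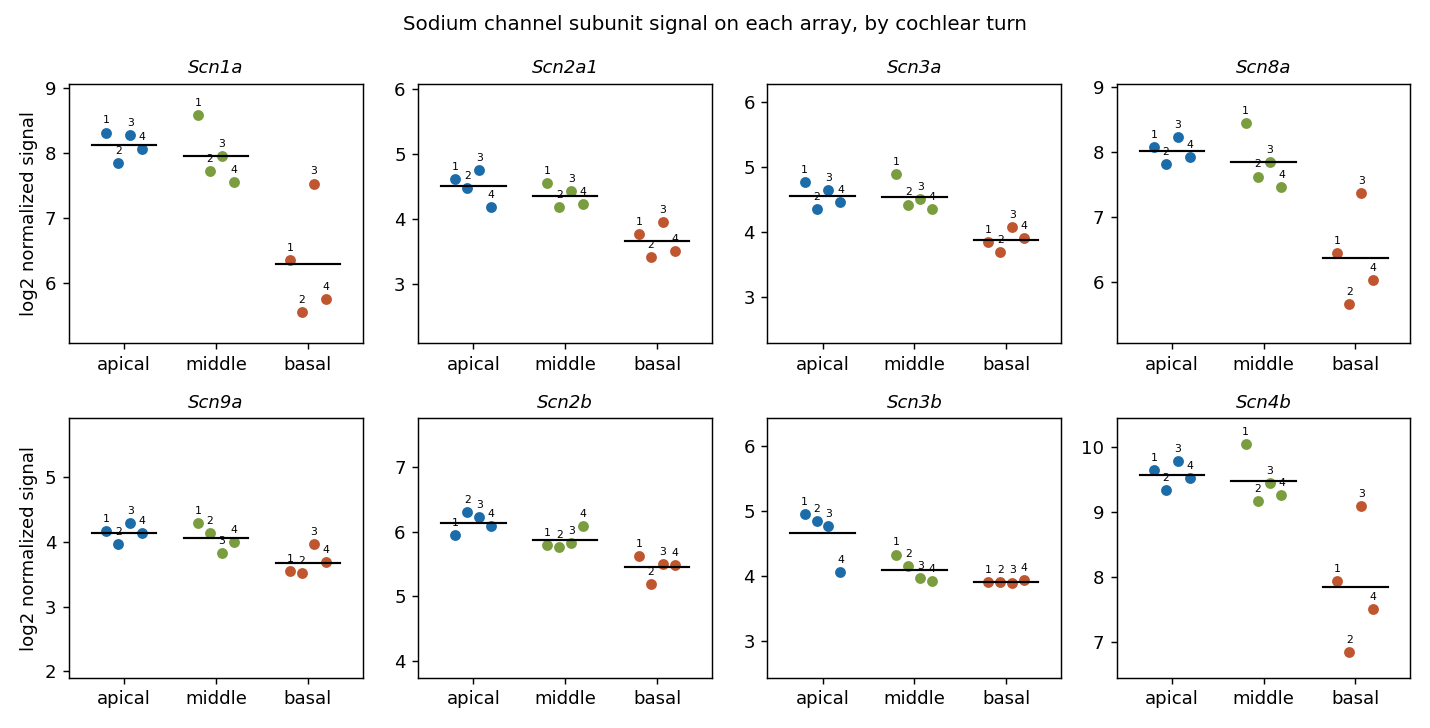
Log2 normalized signal (vertical axis, each panel spanning 4 units) of the 8 genes on each of the 12 arrays, by turn, with the array number beside each point and a line at the mean of the turn. For Scn1a, Scn8a and Scn4b basal array 3 lies highest among the basal arrays and basal array 2 lowest, and middle array 1 is the highest of all arrays.

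The remaining alpha subunits were dim. Scn2a1 encodes Nav1.2, an alpha subunit of unmyelinated axons and developing initial segments. Its signal was 24.5, 22.4, 27.0 and 18.2 on the apical arrays, 23.4, 18.2, 21.6 and 18.8 on the middle arrays, and 13.6, 11, 15.5 and 11.4 on the basal arrays. The basal arrays were below all others. The apical signal was 1.80-fold the basal signal (0.85 ± 0.15, limma adjusted p = 0.000911).

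Scn3a encodes Nav1.3, which is best known from embryonic neurons. It measured 27.2, 20.4, 24.9 and 21.9 on the apical arrays, 29.6, 21.4, 22.7 and 20.4 on the middle arrays, and 14.4, 12.8, 16.8 and 15.0 on the basal arrays. Here too no basal array reached another turn. The apical signal was 1.6-fold the basal signal (0.68 ± 0.13, limma adjusted p = 0.00187). The apical and middle turns differed by 0.01 ± 0.13 log2 units.

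Scn9a encodes Nav1.7, the alpha subunit of peripheral sensory and sympathetic neurons. It measured 18.0, 15.6, 19.5 and 17.5 on the apical arrays, 19.6, 17.5, 14.1 and 16 on the middle arrays, and 11.7, 11.4, 15.7 and 12.9 on the basal arrays. Basal array 3 lay above apical array 2, so these turns overlapped. Apex and base differed 1.37-fold (0.46 ± 0.12, limma adjusted p = 0.0117). With the normexp correction of the background, the difference was 0.12 (limma adjusted p = 0.237).

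These 3 genes share a stretch of chromosome 2 with Scn1a. The probes run from chr2:65296320 (Scn3a) over Scn2a1 (chr2:65508716-65603562) and Scn1a to chr2:66406219 (Scn9a), so that neighbors on the chromosome differed by 1.83 log2 units for Scn1a and 0.46 for Scn9a. The difference between these 2 differences, 1.37 log2 units, had an exact permutation p of 0.0286, the smallest that 4 against 4 arrays allow, and an adjusted p of 0.133 over the 28 pairs of genes.

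Among the beta subunits, Scn2b lies beside Scn4b on chromosome 9, with probes from chr9:44926006 to chr9:44934804. It encodes beta2, which is bound to alpha subunits by a disulfide bond. Its signal was 61.9, 78.6, 74.6 and 67.6 on the apical arrays, 55.4, 54.4, 56.4 and 67.6 on the middle arrays, and 49.1, 36.6, 45 and 44.8 on the basal arrays. Its geometric mean in the apical turn was 1.61-fold that in the basal turn (0.69 ± 0.11, limma adjusted p = 0.000508), and the middle turn lay between them. Middle array 4 equaled apical array 4, while no basal array reached a middle array. Under the correction for background by normexp, the difference was 0.17 (limma adjusted p = 0.0612).

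Scn3b encodes beta3, a subunit without that bond, and its probes run from chr9:40077559 to chr9:40096038. It measured 31.1, 28.7, 27.3 and 16.7 on the apical arrays, 20.1, 17.7, 15.7 and 15.1 on the middle arrays, and 15.0, 14.9, 14.9 and 15.3 on the basal arrays. The middle and basal arrays overlapped. The apical turn differed from the middle turn by 0.57 ± 0.17 (limma adjusted p = 0.0504), and the middle from the basal turn by 0.18 ± 0.17 log2 units (limma adjusted p = 0.467). The first of these passed in 7 of 27 alternative fits and the second in 0. The apical signal was 1.68-fold the basal signal (0.75 ± 0.17, limma adjusted p = 0.00446). Apical array 4 stood near the middle arrays, and without it the difference between the apical and the middle turn was 0.77 (limma adjusted p = 0.00224). That array was the lowest of the apical turn, so leaving it out had to raise the difference. Under normexp the difference shrank to 0.07 (limma adjusted p = 0.598). The 1 Scn3b probe kept for being well above background throughout a turn gave 0.14 (limma adjusted p = 0.377). The median of the gene's probes gave 1.19 (limma adjusted p = 0.103).

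Between the middle and the basal turn, 7 of the 8 genes passed with higher signal in the middle turn, where 11.7% of all genes did so. Scn3b was the exception, and Scn9a passed narrowly (0.38 ± 0.12, limma adjusted p = 0.0488), as it did in only 5 of 27 alternative fits. Of the 8, 3 reached 2-fold and the F test, where 2.2% of all genes were called. Between the apical and the middle turn, 0 of the 8 passed by limma, where 4.42% of all genes passed with higher signal in the apical turn. At an unadjusted p under 0.05, Scn2b and Scn3b passed there, 2 genes by limma and 2 by the unmoderated test. The members' differences between these turns ran from 0.01 to 0.57 log2 units with a median of 0.16.

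Whether the middle turn stood at the midpoint of the ends was asked for each gene. For Scn1a, Scn8a and Scn4b the middle turn was above the midpoint by 0.75 ± 0.33, 0.65 ± 0.28 and 0.77 ± 0.33 log2 units. None of the 8 genes passed by limma after adjustment, where 2.01% of all genes passed, and 4 passed at an unadjusted p under 0.05 by limma and 1 by the unmoderated test. Without basal array 3, Scn1a (0.95, limma adjusted p = 0.0316), Scn8a (0.82, limma adjusted p = 0.0413) and Scn4b (0.98, limma adjusted p = 0.0319) passed, where 6.08% of all genes passed in that fit.

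**Figure D2:**
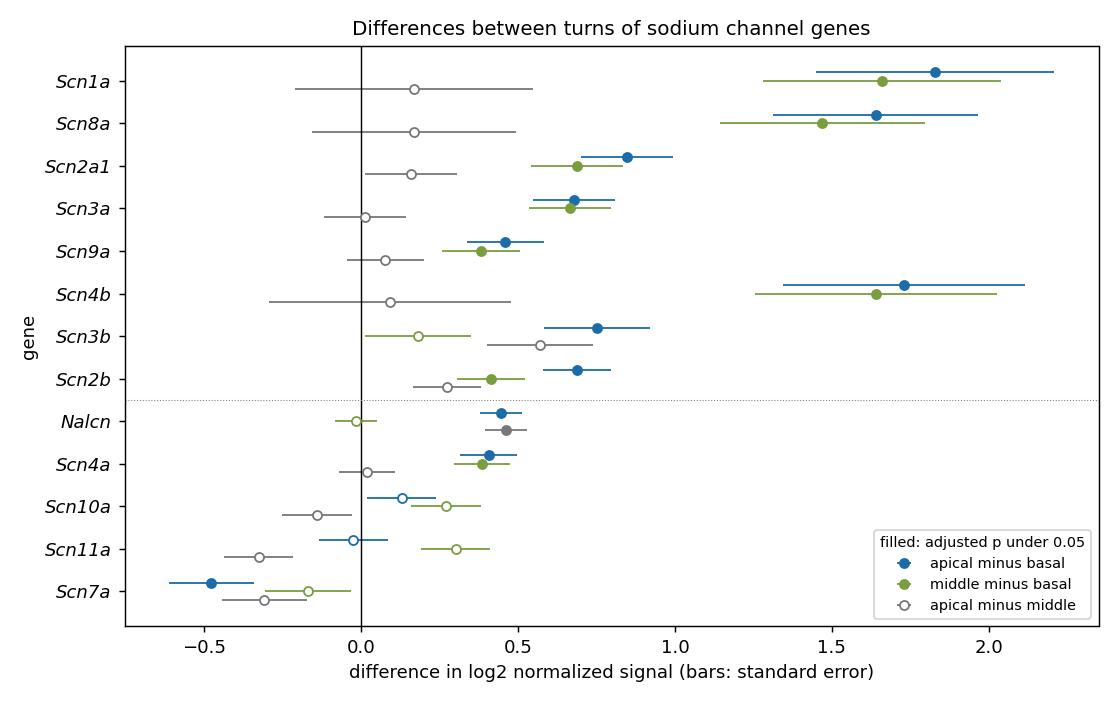
Differences in log2 normalized signal between turns (horizontal axis, bars are standard errors of the limma fit) for the 8 genes above the dotted line and 5 other sodium channel genes below it, with filled points where the adjusted p was under 0.05. Scn1a, Scn8a and Scn4b lie at 1.83, 1.64 and 1.73 for the apical against the basal turn, and no point for the apical against the middle turn is filled above the line.

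The pairs of the 8 genes were compared in how far each fell from apex to base, with an exact two-sided permutation test over the arrays of these turns. Of 28 pairs, 0 passed after adjustment, and 6 reached an unadjusted p of 0.0286. That is the smallest p the test allows, so no pair could pass unless at least 17 of the 28 reached it together. The count of 0 therefore does not decide whether the genes of a single pair differed. Those 6 set Scn9a against each of Scn1a, Scn3a, Scn8a and Scn4b, and Scn3a against Scn1a and Scn8a. Scn1a and Scn8a differed by 0.19 log2 units (exact permutation p = 0.114), Scn1a and Scn4b by 0.10 (exact permutation p = 0.343), and Scn4b and Scn8a by 0.09 (exact permutation p = 0.571). Without basal array 3, 17 pairs passed, the fewest that can pass together.

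The probes of a gene were compared next, since a mean over exons can hide exons that behave differently. Of the 134 probes, 120 were higher in the apical than in the basal turn and 14 lower. By limma, 79 passed with higher signal in the apical turn, where 18% of all probes on the array passed in that direction. With lower signal 0 passed, where 16.4% of all probes did, and 0 did so at an unadjusted p under 0.05. In Scn1a 25 of 25 probes passed, with differences from 1.00 to 2.28 log2 units. In Scn4b 5 of 5 passed, from 1.55 to 1.89. Every one of these probes was well above background on all apical and middle arrays. On all basal arrays 19 of the 25 Scn1a probes and 5 of the 5 Scn4b probes were.

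In Scn8a 23 of 25 probes passed, and both exceptions stood apart in other ways. The probe numbered 10634, the last of the gene, was its brightest, with a mean signal of 8280 in the apical, 7460 in the middle and 9040 in the basal turn. Its difference of -0.13 ± 0.14 log2 units (limma adjusted p = 0.55) did not pass. Without that last probe the gene's difference was 1.71 log2 units. Of the 25 probes, 19 were well above background on all basal arrays.

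The other exception was well above background on 0 of 12 arrays, with signals between 5.19 and 23.7.

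In the dim alpha subunits the probes split. Of 24 probes of Scn2a1, 11 were well above background on no array and 9 passed. These sets overlapped, as 3 of the 9 that passed were well above background on no array. The probe numbered 888 read 104, 109 and 86.4 (0.26 ± 0.15, limma adjusted p = 0.21).

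Scn3a showed the same kind of split, with 12 of 23 probes well above background on no array and 8 passed. Of the 8 that passed, 2 were well above background on no array. The probe numbered 1857 read 94.1, 97.3 and 99.2 (-0.08 ± 0.11, limma adjusted p = 0.64), although it was well above background on all 12 arrays. Probes of Scn3a that passed had a median identity of 86.6% to their closest probe of another sodium channel gene, and those that did not had 76.7%.

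In Scn9a 15 of 23 probes were well above background on no array and 4 passed. Of the 4 that passed, 3 were well above background on no array. Its brightest probe, numbered 864, read 637, 674 and 651 and did not differ between turns beyond its error (-0.03 ± 0.11, limma adjusted p = 0.85). The probe numbered 1600 read 90.2, 76.5 and 39.2 (1.2 ± 0.32, limma adjusted p = 0.013). For Scn9a the median identity was 66.2% in the probes that passed and 75% in the others, and for Scn2a1 83.3% and 82.8%. Binding of one subunit's RNA to another subunit's probe was not tested. As deposited, 4 probes were also listed for a transcript of another subunit: Scn1a 347, Scn1a 4946, Scn3a 2830 and Scn2a1 685.

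Of the beta subunits with few probes, Scn2b had 4 and Scn3b 5. The 2 Scn2b probes that were well above background on all 12 arrays read 60.9, 71.5 and 57.5 (number 47) and 399, 376 and 311 (number 1153), with differences of 0.08 ± 0.20 and 0.36 ± 0.11 log2 units. The 2 dim ones differed by 1.37 ± 0.29 and 0.95 ± 0.28. In Scn3b the single bright probe, numbered 758, read 259, 234 and 220 (0.23 ± 0.11, limma adjusted p = 0.13), and the 2 probes that passed, 1101 and 1381, were well above background on 3 arrays and 1 array. In both genes the probes with the larger differences were the dim ones.

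**Figure D3:**
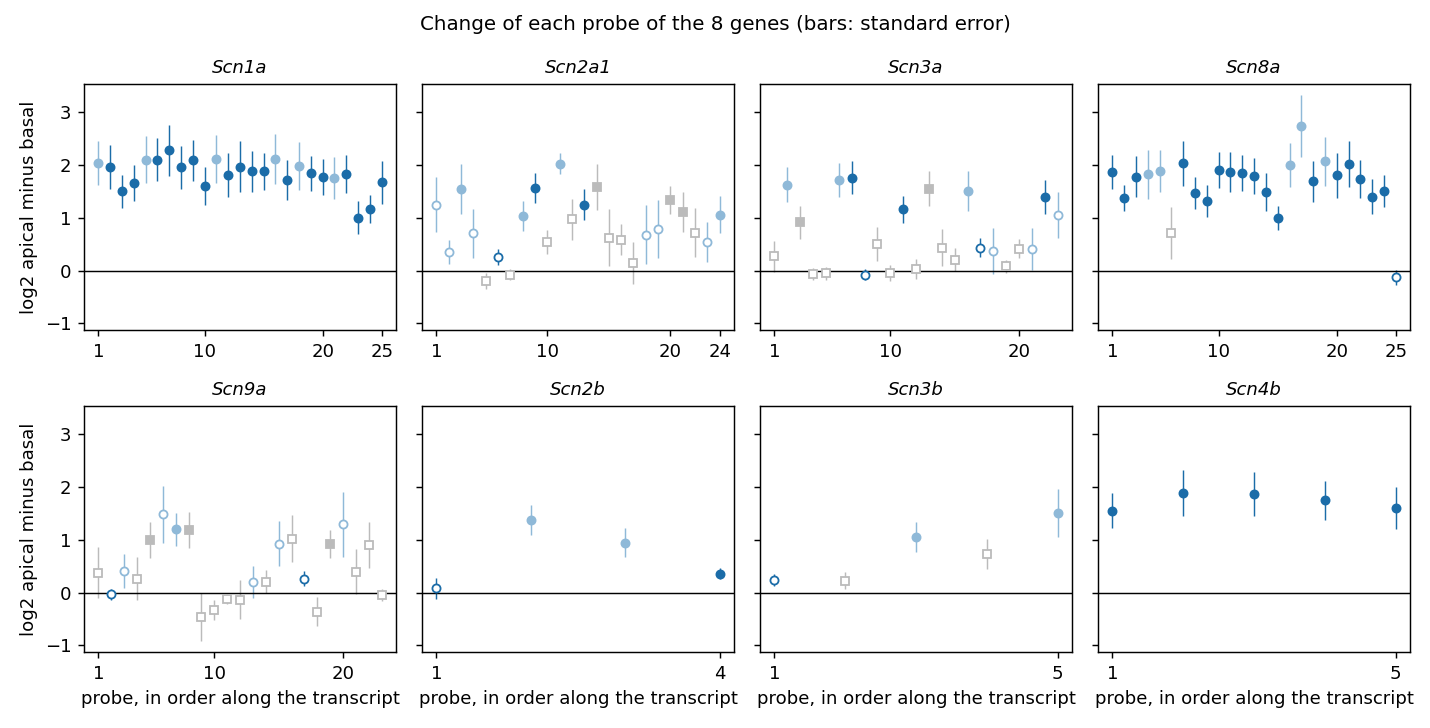
Log2 difference between the apical and the basal turn (vertical axis, bars are standard errors) of each probe of the 8 genes in order along the transcript (horizontal axis). Dark circles were well above background on 12 arrays, light circles on 1 to 11 and gray squares on 0, and filled symbols had an adjusted p under 0.05: all 25 probes of Scn1a and 5 of Scn4b are filled and above 0, and the last probe of Scn8a lies at -0.13.

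When probes that were not well above background throughout at least 1 turn were dropped, the genes kept 25 (Scn1a), 4 (Scn2a1), 7 (Scn3a), 24 (Scn8a), 3 (Scn9a), 2 (Scn2b), 1 (Scn3b) and 5 (Scn4b) probes. A probe could be kept through the turn where it was bright, so a larger difference under this filter is partly built in. Scn2b (0.22, limma adjusted p = 0.129) and Scn3b (0.23, limma adjusted p = 0.083) no longer passed under it. When 35 probes with at least 85% identity to a probe of another sodium channel gene were left out, the differences were 1.81 for Scn1a, 1.67 for Scn8a, 0.84 for Scn2a1, 0.62 for Scn3a and 0.36 for Scn9a, and all 5 still passed. With arrays scaled to the spike-in probes, where the median of all genes lay at -0.52 log2 units, Scn1a (1.34), Scn4b (1.25), Scn8a (1.15) and Scn2a1 (0.36) passed, and Scn3a (0.19), Scn2b (0.20), Scn3b (0.26) and Scn9a (-0.03) did not. With normexp, Scn1a differed by 1.17, Scn8a by 1.03 and Scn4b by 1.35 log2 units.

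Other genes of the family and a related leak channel were listed beside the 8. Of 7, 2 passed with higher and 1 with lower signal in the apical than in the basal turn, and their median difference was 0.13 log2 units. Nalcn, a sodium leak channel, was higher in the apical turn (0.45 ± 0.07, limma adjusted p = 0.000403), as was Scn4a, the channel of skeletal muscle (0.41 ± 0.09, limma adjusted p = 0.00414). Scn7a, which encodes a sodium-sensing channel relative, was lower (-0.48 ± 0.14, limma adjusted p = 0.0161). Scn10a differed by 0.13 ± 0.11 and Scn11a by -0.02 ± 0.11, without passing.

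Proteins that bind sodium channels were mixed. Of 9 genes for fibroblast growth factor homologous factors and other channel regulators, 1 passed higher and 1 lower. Fgf12, one of these factors, was called, with a 3.33-fold higher signal in the apical turn (1.74 ± 0.33, limma adjusted p = 0.00174). Fgf11, Fgf13 and Fgf14 differed by 0.05, 0.18 and -0.16 without passing.

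Ankyrins, spectrins, adhesion proteins and potassium channels hold and surround sodium channels at nodes and initial segments. Of 18 such genes, 17 passed with higher signal in the apical turn, and Gldn (0.19, limma adjusted p = 0.639) did not. Called with the 2-fold rule were 6: Epb4.1l3 (1.66), a paranodal linker, Kcnab2 (1.40), Ank2 (1.37), an ankyrin, Kcna2 (1.29), Kcnq3 (1.19) and Cntnap2 (1.09), which encode potassium channel subunits and a juxtaparanodal adhesion protein. Ank3, which encodes the ankyrin that anchors sodium channels, differed by 0.54 ± 0.07 (limma adjusted p = 0.000177).

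Markers of cell types moved with the turn as well. Of 16 spiral ganglion neuron markers, 12 passed with higher and 1 (Prph) with lower signal in the apical turn, and 11 were called: Nefl, Nefm, Nefh, Ina, Tubb3, Snap25, Syt1, Stmn2, Calb2, Thy1 and Elavl4. The geometric mean of the list was 1141 to 1406 on the apical, 1064 to 1724 on the middle and 331 to 1022 on the basal arrays, so that the basal arrays did not reach the others. Of 10 Schwann cell markers found, 8 passed higher, with Egr2 called, and the list read 1180 to 1285, 1233 to 1470 and 636 to 1077. Pmp22, among the brightest of them, differed by 0.59. Of 12 hair cell markers, 12 passed higher and 9 were called (Slc26a5, Ptprq, Ocm, Strc, Chrna10, Chrna9, Slc17a8, Otof and Tmc1), Gfi1 differed by 0.64, and the list read 200 to 244, 157 to 171 and 62.6 to 86.4.

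Markers of the lateral wall ran the other way. Of 11, 0 passed higher and 9 lower in the apical turn, with Otos called (-1.28) and Coch and Car3 at -0.57 and -0.42. Supporting cell markers were mixed, with Sox2 called higher (1.67) and Gjb2, Gjb6 and Slc1a3 at -0.52, -0.77 and -0.51. Of 5 brain glia markers, Aqp4 was called higher (1.90), and the other 4 did not pass, with Gfap at 1.17 (limma adjusted p = 0.279), Olig2 at 0.91, Mog at -0.02 and Aldh1l1 at -0.19. Of 6 bone markers, Dmp1 was called lower (-1.09), and the other 5 did not pass, from -0.17 (Bglap) to 1.31 (Ibsp, limma adjusted p = 0.294). Of 8 muscle markers, 2 passed lower, Acta1 (-0.93) and Mylpf (-0.45), and 0 higher. Every listed gene found on the array had a probe well above background on at least 1 array, and Olig2 on 1 array only. Among the neuronal markers the basal mean signal ran from 27.9 (Syt1) and 39.7 (Gap43) to 4695 (Calb2). The part of Schwann cells, hair cells, glia and bone in the differences of the 8 genes was not tested.

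Within the basal turn the neuronal list and the 3 called genes ranked the arrays in the same order, with array 3 highest, then 1, 4 and 2. This order was not particular to the neuronal list. The Schwann cell, node scaffold and channel regulator lists had it too, and the remaining lists did not. After the neuronal list was subtracted on each array, the SD of Scn8a between basal arrays dropped from 0.74 to 0.06 log2 units, that of Scn1a from 0.89 to 0.23 and that of Scn4b from 0.95 to 0.26. In the other 5 genes it rose, from 0.24 to 0.46 for Scn2a1, 0.16 to 0.55 for Scn3a, 0.21 to 0.52 for Scn9a, 0.18 to 0.61 for Scn2b and 0.02 to 0.70 for Scn3b. The list varied far more than these 5 genes between basal arrays, with a mean log2 signal from 8.372 to 9.997. Subtracting it therefore had to raise their SD, and the rise shows no contrast to the 3 called genes. The list itself differed by 1.27 log2 units between apex and base. Scn1a differed by 0.56, Scn4b by 0.46 and Scn8a by 0.37 log2 units more than the list, and Scn9a by 0.81 less (each an exact permutation p of 0.0286 and an adjusted p of 0.0571, over 8 genes). None of the 8 passed after adjustment, and 4 did at an unadjusted p under 0.05. As 0.0286 is the smallest exact permutation p here, none could pass unless at least 5 of the 8 reached it. Without basal array 3, 8 of 8 passed, with 5 below and 3 above the list.

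The size of this gap depended on the background correction and on the markers. With normexp, Scn1a, Scn8a and Scn4b minus the list differed by 0.08, -0.06 and 0.26 log2 units. Against the neurofilament genes Nefl, Nefm and Nefh alone, which differed by 1.80, 2.00 and 2.01 log2 units, Scn1a, Scn8a and Scn4b differed by -0.11, -0.30 and -0.20, and their direction turned. With Rbfox3, Prph and Gap43 left out of the list, Scn1a, Scn8a and Scn4b differed by 0.28, 0.08 and 0.18 more than it. Their adjusted p by exact permutation was 0.114, 0.2 and 0.152. These choices of markers were made after the data were seen.

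**Figure D4:**
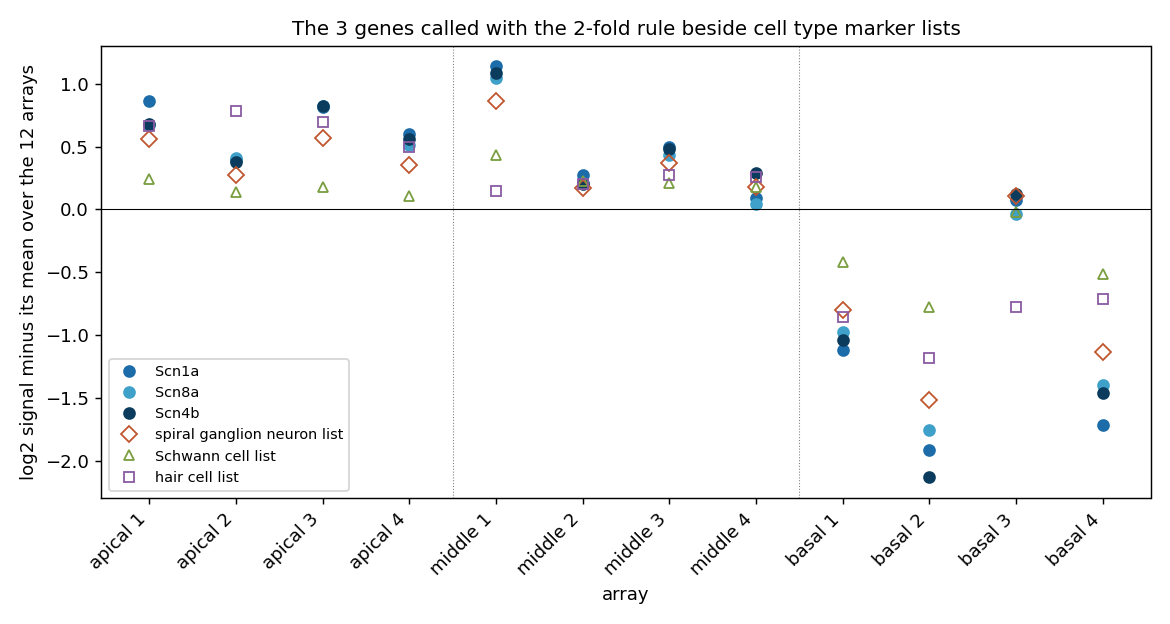
Log2 signal of Scn1a, Scn8a and Scn4b (filled circles) and mean log2 signal of the spiral ganglion neuron, Schwann cell and hair cell marker lists (open symbols) on each of the 12 arrays (horizontal axis), each minus its mean over all arrays. Basal arrays 1, 2 and 4 lie well below 0 for the 3 genes and the neuronal list, and basal array 3 lies near 0 for these but lower for the hair cell list.

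The genes whose pattern was most like that of a called member were found by Pearson's r over the 12 arrays, among 16007 genes with a probe well above background on all of them. These values describe arrays that fall into separate turns and carry no test. For Scn8a they were Kif1a, an axonal kinesin (r = 0.9985), Hecw1 (0.9978) and Cntnap5a (0.9978). For Scn4b they included Ank1 (0.9987) and Chga (0.9985). For Scn1a they were Frmd3 (0.9970), the nuclear receptor gene Esrrg (0.9969) and Scn8a (0.9969). The differences of the genes named ran between apex and base from 1.19 (Chga) to 1.84 (Cntnap5a) log2 units.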

How the data were processed

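RNA of each turn was labeled with Cy3 by the Low Input Quick Amp whole transcriptome method and hybridized to SurePrint G3 Mouse Exon arrays. The authors extracted the spots with Agilent Feature Extraction 10.7.3.1, and the deposited intensity used here, the processed signal, has a fitted background subtracted and a trend across the array removed, with no scaling between arrays. Where a spot did not exceed the background, the deposited intensity is a small placeholder above 0. The deposited flags, which are other values than intensities, mark uneven, deviating and well-above-background spots. The authors' table of values repeats the processed signal.

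In R 4.3.3 with limma 3.58.1, 7914 control spots and flagged spots were left out, which left 165865 probes of 19505 genes. Each array was scaled so that its 75th percentile reached 641.3, the median of the 12 arrays. Before scaling, the percentile ran from 534.6 to 722.1. Log2 signals were averaged per probe and then per gene, as the study's methods do. limma was fitted to all genes, or all probes, of the 12 arrays with turn as the factor, and p-values were adjusted by Benjamini-Hochberg over all of them. Calls needed an F test across the turns below an adjusted p of 0.05 together with a difference of 2-fold or more between the turns compared. Differences between 2 genes, and between a gene and the neuronal list, were tested by exact two-sided permutation of arrays. The scripts were tested on simulated data. The spread in the text is the SD of normalized signals, and the error of a log2 difference its standard error. The number of arrays limits the precision.

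The 8 genes, the gene lists and the tests were chosen with earlier results of these data known. The study itself named some of the 8 genes from these samples, which is no independent evidence of their direction. Named were all 8 genes and other sodium channel genes on the list. From regulator and scaffold genes those called, or the largest, were named, from each cell type list the 3 brightest and those called, and for each called gene the 3 most alike. Others, such as Fgf11, Fgf13, Fgf14, Gldn and Ank3, were chosen after their values were seen, as were the probes described. Some genes that these rules would name, and some probes, are not reported here. Of the listed symbols, 4 were matched through RefSeq synonyms (Sptbn4, Sptbn1, Sptan1 and Map2), and Sox10 was not matched. Alternatives were other scalings, background corrections, probe choices, tests and left-out arrays.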

Additional observations from a re-analysis of the deposited data

Results flagged for a closer look

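Among 24 sets of 4 arrays, 1 per member and turn, 1 held an array far from the other 3: Scn2b on middle array 4, where the gap to the nearest array was 0.84 of the whole range of log2 signal, above Dixon's critical value. Chance gives about 1 in 20 such sets. The signal was 67.6 there and 54.4 to 56.4 on the other middle arrays.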

How the results depend on the processing

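In the 27 alternative fits, the differences of Scn1a, Scn8a and Scn4b between apex and base stayed between 1.17 and 2.24, 1.03 and 1.97, and 1.25 and 2.15 log2 units, and passed in each. The fit on the authors' table of values is among them. It repeats the main fit, so its outcome was fixed. For Scn4b, leaving out probes alike to another sodium channel gene removed none of its probes. Scaling to 8 spike-in probes moved the median of all genes by -0.49 log2 units between apex and base, to -0.52. There 4 of 8 members passed, Scn9a (-0.0279) between apex and base and Scn3b (-0.0897) between middle and base changed sign, 1435 genes were called in place of 856, and the share of calls higher in the apical turn went from 74.5% to 14.7% (apical against middle from 68.2% to 24.4%, middle against basal from 82.9% to 45.2%). Scaling to the median lowered that share to 61.6% (apical against basal) and 56% (apical against middle). With normexp, 312 genes were called between apex and base, 14 between apical and middle in place of 85, and 169 between middle and basal in place of 519. With it 16 pairs of members reached an unadjusted exact permutation p under 0.05. Their adjusted p equaled the threshold of 0.05, so these pairs are not read as passing. Under normexp Scn8a minus the neuronal list was -0.0585, Scn1a minus the list 0.0775 and Scn4b minus the list 0.262. With 16 added to each signal the counts were 570, 39 and 315. For the apical against the middle turn, 1 member (Scn3b) passed in place of 0 under quantile normalization, median scaling, 16 added, and limma with trend and robust. With the median of a gene's probes, 6 members were called between apex and base and 1 between apex and middle. Of all 19505 genes, 981 and 106 were called in that fit. The 1 member was Scn3b (1.19), called through the F test across the turns, while its contrast did not pass (limma adjusted p = 0.103). Scn3b minus the neuronal list was 0.316 there. With probes well above background throughout a turn, which can be kept through the turn where they are bright, 5 were called between apex and base. In that fit 889 genes were called in all. With the neurofilament genes in place of the list, Scn1a, Scn8a and Scn4b minus the markers were -0.106, -0.296 and -0.204. The cause of these changes was not tested.

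Leaving out 1 array at a time, 8 members passed and 3 were called between apex and base each time, with 720 to 1012 genes called. Between middle and base 5 to 7 passed, lowest without basal replicate 2. Members passed in 0 to 1 cases between apical and middle (without apical replicate 4 or middle replicate 1), 0 to 3 for the midpoint, 0 to 17 of the pairs and 0 to 8 against the neuronal list, the highest of the last 3 without basal replicate 3. Between 70 and 80 probes passed. With 3 arrays left in an arm the smallest exact p is 0.0286, as with 4.

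Sample numbers are shared by the turns but not tied to mice. Same-numbered arrays of different turns correlated in their deviations with r from -0.037 to 0.23 (mean 0.095), over 0.1 in 6 of 12 pairs. Arrays with different numbers had r from -0.26 to 0.25 (mean -0.031), over 0.1 in 2 of 36 pairs. The arrays were not treated as pairs because the labels do not tie a number to a mouse. Whether a number stands for a mouse was not tested. With the sample number as a replicate block, 1 member passed in place of 0 between apical and middle (Scn3b, adjusted p = 0.0327 by limma), and Scn9a no longer passed between middle and basal (adjusted p = 0.0716 by limma).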
